A study of Ovis aries with 32 samples.

Results

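The sheep mitochondrial genome carries 37 genes, and all of them were present among the 27054 genes counted in every library of this study. They were taken as the first 37 Ensembl identifiers of the count files, from ENSOARG00000000001 to ENSOARG00000000037, which follow the order of the mitochondrial map from tRNA-Phe to tRNA-Pro: 13 protein-coding genes, 2 rRNA genes and 22 tRNA genes. The count files give identifiers without names, so names were read from that order. In the RefSeq map of the sheep assembly ARS-UI_Ramb_v3.0 the kind of gene matched at the same place for 37 of 37 members and the symbol for 13 of 13 protein-coding members.

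RNA was sequenced from the liver and the muscle of 16 lambs, 8 fed a control diet (CTRL, lambs 1 to 8) and 8 fed the same diet with essential oils (EO, lambs 9 to 16), which gave 32 libraries in 4 groups. The lambs were Appenninica × Sarda crosses with labelled ages of 154 to 190 postnatal days. The control feed carried the cyclodextrins without oils, and the EO feed carried cyclodextrins with oils of cinnamon bark, dill seed and eucalyptus. Each diet held males and females, but the sex of each lamb is not in the sample labels, so that the sexes were pooled and a diet effect that differs between them was not analysed here. Libraries were made from poly-A selected RNA, and fragments were counted on a gene only if they aligned to 1 place in the genome.

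The 13 proteins encoded in mitochondrial DNA are core subunits of the respiratory chain and of ATP synthase, and the remaining subunits come from nuclear genes. Both strands of the circle are transcribed into long precursors, from which most mRNAs are released by excision of the tRNAs lying between them. Most genes are read in the same direction, while ND6 and a minority of the tRNAs, among them tRNA-Ser(UCN), tRNA-Glu and tRNA-Pro, are read in the opposite one. Mitochondrial mRNAs generally carry short poly-A tails, whereas mature tRNAs do not. Liver and skeletal muscle are both tissues with high mitochondrial content.

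Depth, as counts on genes, lay between 1460920 and 6689488 per liver library and between 2572638 and 14035050 per muscle library. The 37 genes together received 7763035 of 189694991 counts on genes. A measure set beside many of the liver results below is the no_feature share, the percentage of uniquely aligned fragments that fell outside annotated genes. It ranged from 23.6 to 48.6% in liver (33.9 ± 8.66%, SD, n = 16) and from 27.2 to 30.5% in muscle (29.2 ± 0.98%, n = 16), and 5 liver libraries (lambs 2, 3, 8, 14 and 16) lay above 40%. The labels give no batch of extraction or sequencing.

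Reads were concentrated on very few members. COX1 (ENSOARG00000000016), the catalytic core subunit of cytochrome c oxidase, CYTB (ENSOARG00000000035), the mitochondrially encoded subunit of complex III, ND5 (ENSOARG00000000032), a proton-pumping subunit of complex I, and ATP6 (ENSOARG00000000022), part of the proton channel of ATP synthase, held 99.7% of the mitochondrial counts. CYTB held 45.8% of them (3555254 counts), COX1 34.3% (2663945), ND5 10.9% (848897) and ATP6 8.65% (671646). Counts are not scaled by gene length, so these shares describe where reads were counted and not which transcript was the more abundant.

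The other 9 protein-coding genes received 17649 counts in all, of which 16202 lay on ND6 (ENSOARG00000000033), a complex I subunit. The remaining 8, ND1, ND2, ND3, ND4 and ND4L of complex I, COX2 and COX3 of cytochrome c oxidase, and ATP8 of ATP synthase, shared 1447 counts over 32 libraries. COX3 had 452, COX2 431, ND1 313 and ND4 194, with at most 48 counts of any of them in a library, while ATP8 had 22, ND3 15, ND4L 13 and ND2 7. The contrast runs between genes of 1 protein complex and between neighbours on the map: within cytochrome c oxidase, COX1 had 2663945 counts against 431 for COX2, and COX3, the next gene after ATP6, had 452 against 671646.

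The rRNA and tRNA genes were nearly empty. The 12S rRNA had 8 counts and the 16S rRNA 22 in all libraries together. Of the 22 tRNA genes, 18 had no count in any of the 32 libraries, a result that allows up to 0.0158 CPM (counts per 1000000 counts on genes) over all libraries (3 counts) and 0.214 to 2.05 CPM in a single library. The 4 with counts were tRNA-Ser(UCN) with 4255, tRNA-Thr with 712, tRNA-Pro with 606 and tRNA-Glu with 41. The CPM limits given for the 18 empty tRNA genes cover counting error only. Libraries were poly-A selected, whereas mature tRNAs carry no poly-A tail. Fragments overlapping several genes went to a separate counter and not to any gene. The lack of counts therefore describes what was counted and cannot tell whether these tRNAs or their precursors were present.

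**Figure D1:**
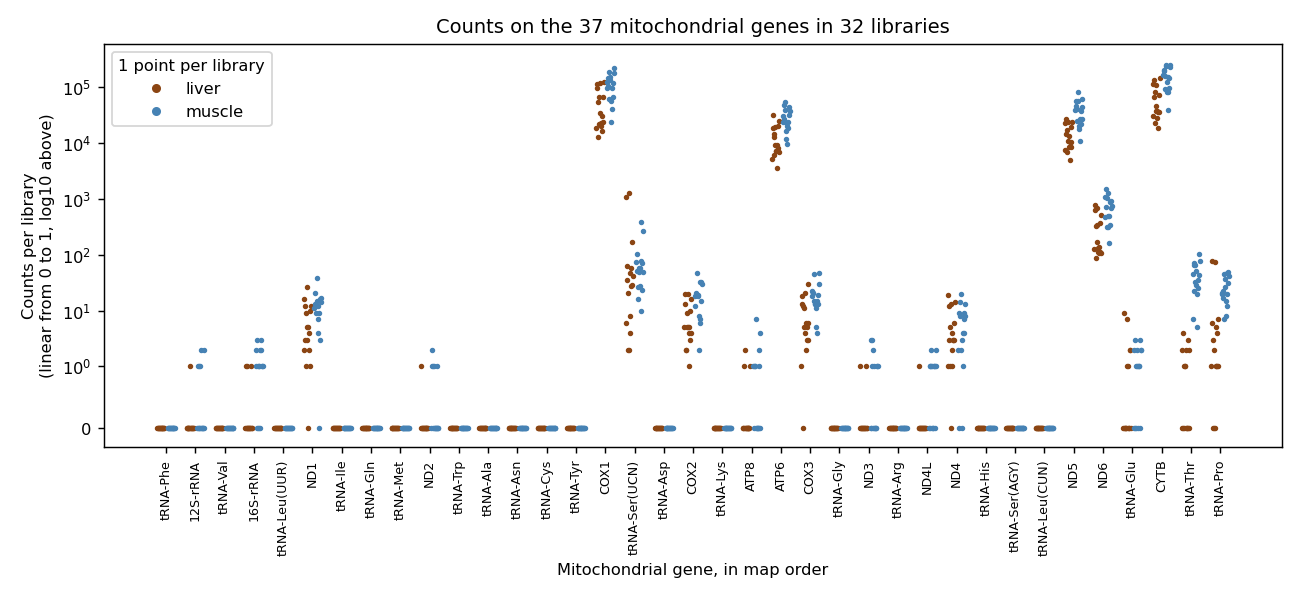
Counts per library (y axis, linear from 0 to 1 and log10 above) for the 37 mitochondrial genes in map order (x axis), 1 point per liver (brown) or muscle (blue) library. COX1, ATP6, ND5 and CYTB stand far above the others in all 32 libraries, and 18 tRNA genes lie at 0 throughout.

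The same genes were high and the same genes were nearly empty in both tissues and under both diets. Fragments with more than 1 alignment are dropped without a record of where they would have fallen, so the number missing from each member, and whether copies of mitochondrial DNA in nuclear chromosomes received them, was not tested. The counter for fragments that overlapped more than 1 gene held at most 11061 fragments in a liver library and 3377 in a muscle library, against 43678 to 324531 mitochondrial counts per liver library. It is not split by gene, so it does not bound what sparse members lost, such as COX2 with at most 48 counts in a library. In the muscle library of CTRL lamb 5, whose counter of non-unique alignments stands at 0, ND1 had 12 counts, COX2 19, COX3 15 and ND4 8, against 62746 on COX1. The reason for that 0 is not given in the sources used here. It does not tell whether such alignments were absent or removed before counting, so these counts do not bear on lost reads.

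ND6 overlaps or adjoins ND5 on the opposite strand, ATP8 overlaps ATP6, and tRNA-Ser(UCN) lies directly after COX1. The sources used here do not state whether counting used strand, so reads of ND6 and of its partner, and reads of tRNA-Ser(UCN) and of a COX1 or opposite-strand precursor, cannot be told apart. ND6 counts per 1000 ND5 counts were 18.5 ± 6.55 in liver (n = 16) and 18.8 ± 5.76 in muscle (n = 16).

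The mitochondrial share of all gene counts was similar on average in the tissues but very unequal in its spread. It was 4.64 ± 3.82% in liver (SD, n = 16), with a lowest value of 1.31%, a median of 2.88% and a highest value of 12.5%. It was 4.25 ± 0.70% in muscle (n = 16), from 2.97 to 5.39%. Its coefficient of variation was thus 82.4% among livers but 16.4% among muscles, and the share was higher in muscle in 10 of 16 lambs. In bulk tissue, fewer cells rich in mitochondria and less mitochondrial RNA per cell cannot be told apart.

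Relative to all uniquely aligned fragments, those outside genes included, the share was 2.78 ± 1.95% in liver and 3.01 ± 0.51% in muscle. The wider spread of liver held for each main member. The coefficient of variation of CPM was 92.0% in liver and 13.1% in muscle for COX1, 78.8 and 19.5% for CYTB, 82.8 and 31.9% for ATP6, 71.2 and 33.96% for ND5, and 92.7 and 33.8% for ND6.

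In liver the mitochondrial genes rose steeply with the no_feature share. The 5 libraries above 40% had mitochondrial shares of 5.71 to 12.5% (median 9.80%), and the 11 at or below 40% had 1.31 to 4.43% (median 1.81%), so the ranges did not overlap. COX1 lay at 19066 to 46831 CPM in the libraries above the cut (median 42473) and at 4011 to 16470 CPM in the others (median 6717). CYTB moved in the same way, with 26362 to 50938 CPM against 6391 to 19985 CPM. Among uniquely aligned fragments the mitochondrial share was 3.31 to 6.94% against 1.00 to 2.79%, and the ranges were again apart.

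The slope of each gene on the no_feature share was fitted with edgeR over all genes that reached 1 CPM in at least 9 of the 16 liver libraries. Of 11570 genes tested, 30.9% rose and 31.9% fell at an adjusted p of 0.05, which together is 62.8%. Of the 37 members, 10 passed the filter on low counts and 10 of these rose. The slopes (log2 per percentage point) had a median of 0.15 over these members and of -0.000743 over all genes tested.

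COX1 rose by 0.153 ± 0.00989 (SE; edgeR quasi-likelihood test, adjusted p = 1.71e-10), which is 2.90-fold for 10 points. ND6 rose by 0.148 ± 0.00854 (adjusted p = 5.12e-11), or 2.79-fold for 10 points, and CYTB by 0.128 ± 0.0106 (adjusted p = 4.06e-09), or 2.42-fold. The lowest slopes were those of ATP6, 0.122 ± 0.0132, and ND5, 0.108 ± 0.0103, corresponding to 2.33-fold and 2.11-fold for 10 points. The difference between the slopes of members was not tested.

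The sparse members rose as well. ND1 and ND4 each had a slope of 0.175 (3.37-fold for 10 points), COX3 0.155 and COX2 0.142, with standard errors of 0.0191 to 0.0213. These genes reached at most 9.30, 6.32, 10.2 and 7.16 CPM in a liver library, so that their slopes rest on few counts. tRNA-Ser(UCN) had the steepest slope, 0.284 ± 0.0321 (adjusted p = 2.07e-07), or 7.14-fold for 10 points. Without lambs 2 and 8 its slope was 0.190 ± 0.0423 (adjusted p = 0.000796, chosen after seeing the data).

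All 10 members also rose within the CTRL lambs alone and within the EO lambs alone (n = 8 each), beside 25% and 19.6% of 11570 genes, and COX1 had slopes of 0.144 and 0.176. With uniquely aligned fragments as library size the slope of COX1 was 0.124 ± 0.0097 and that of ND5 0.0783 ± 0.0106, and 10 of 10 members still rose, beside 12.9% of genes that rose and 51.2% that fell. Non-unique alignments, as a percentage of everything recorded, moved along: they made up 40.6 to 56.4% in the liver libraries above 40% no_feature and 23.9 to 37.9% in the others. Their part in the result was not tested.

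The no_feature share of muscle covered a much narrower range, and no slope on it was called there. Of 11 members tested in muscle, 0 passed the adjusted threshold and 0 had an unadjusted p under 0.05 (edgeR), against 0% and 6.15% of 11757 genes. Slopes ran from -0.34 (ND1) to 0.17 (tRNA-Ser(UCN)) log2 per point with standard errors of 0.0747 to 0.319, several times those of liver. COX1 had -0.08 ± 0.07 log2 per point in muscle. The difference between the slopes of the tissues was not tested.

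**Figure D2:**
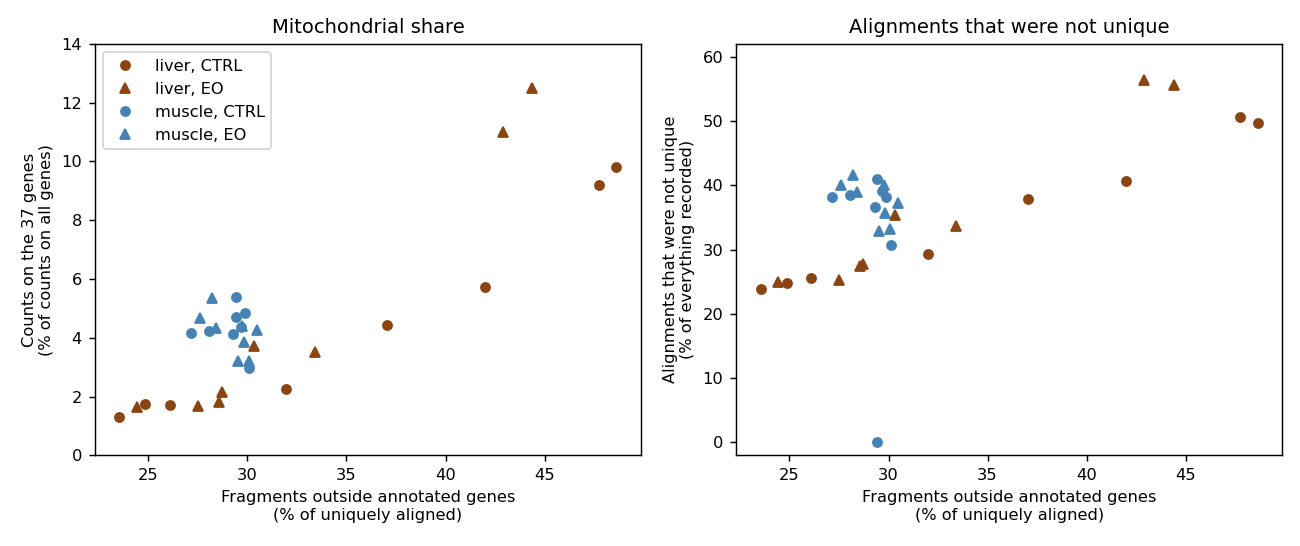
Left, percentage of gene counts on the 37 mitochondrial genes (y axis) against the percentage of uniquely aligned fragments outside genes (x axis); right, percentage of recorded alignments that were not unique, on the same x axis. Points are libraries (brown liver, blue muscle, circles CTRL, triangles EO); liver climbs from 1.31 to 12.5% on the left, while muscle stays between 2.97 and 5.39%, and the muscle library at 0 on the right is CTRL lamb 5.

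The composition of the mitochondrial counts shifted with the no_feature share too, given here as a description. COX1 made up 33.4 to 43.4% of mitochondrial counts in the 5 liver libraries above 40% and 26.7 to 37.2% in the other 11. ND5 made up 7.28 to 10.5% and 9.57 to 14.1%, and CYTB 40.1 to 46.2% and 42.4 to 48.7%. The ranges overlapped for each of the 3 genes, with COX1 tending upward and ND5 and CYTB downward.

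The diets were compared to ask whether the essential oils altered these genes. In liver COX1 had 17242 ± 15425 CPM in CTRL (lowest 4011, median 12283, highest 42473) and 17119 ± 17229 CPM in EO (lowest 5140, median 9039, highest 46831; SD, n = 8 each). In muscle it had 14063 ± 1379 CPM in CTRL (median 13996) and 13309 ± 2166 CPM in EO (median 13787). The groups overlapped in both tissues, in muscle with ranges of 12281 to 16601 CPM in CTRL and 9151 to 15620 CPM in EO.

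CYTB gave 19670 ± 13798 CPM in CTRL and 20899 ± 18888 CPM in EO in liver, and 20272 ± 4065 and 19583 ± 3963 CPM in muscle. ND5 gave 4309 ± 2674 and 4830 ± 3922 CPM in liver, and 5187 ± 1753 and 4870 ± 1766 CPM in muscle. ATP6 gave 3766 ± 2337 and 4551 ± 4427 CPM in liver, and 3837 ± 1422 and 3734 ± 1051 CPM in muscle. For each of these genes the diets differed by less than 1 SD of either group.

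ND6 gave 106 ± 94.6 CPM in CTRL and 83.5 ± 85.5 CPM in EO in liver, and 92.9 ± 28.6 and 86.3 ± 33.5 CPM in muscle. The mitochondrial share of gene counts was 4.52 ± 3.43% in CTRL and 4.75 ± 4.42% in EO in liver, and 4.35 ± 0.70% and 4.16 ± 0.72% in muscle. The no_feature share, with which the liver levels moved, was 35.2 ± 10.2% in CTRL liver and 32.5 ± 7.31% in EO liver.

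**Figure D3:**
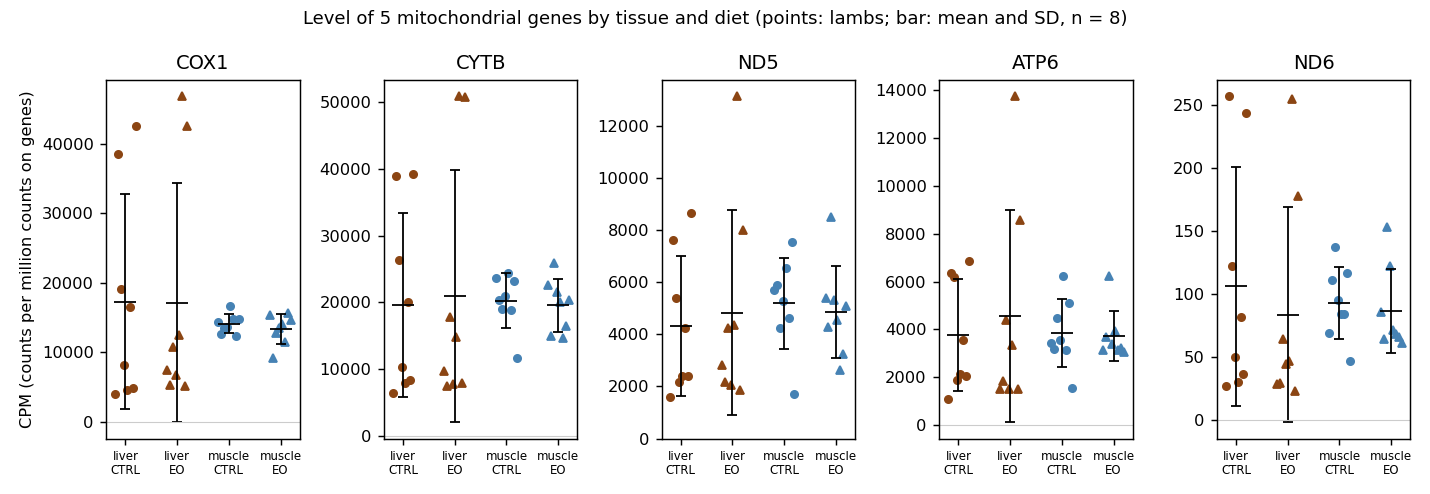
CPM (y axis, linear, a separate scale for each gene) of COX1, CYTB, ND5, ATP6 and ND6 in the 4 groups of 8 lambs; points are lambs, horizontal bars the mean and whiskers the SD. CTRL and EO overlap in both tissues, and the liver points spread far more widely than the muscle points, COX1 from 4011 to 46831 CPM against 9151 to 16601 CPM.

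In the fits over all genes, 0 of 10 members tested in liver and 0 of 11 tested in muscle differed between diets at an adjusted p of 0.05 (edgeR), beside 0% of 11570 and 0% of 11757 genes. The difference of diet effects between the tissues was called for 0 of 12 members and 0% of 13020 genes. At an unadjusted p under 0.05 the counts of members were 0 in liver, 2 in muscle and 2 for the difference between tissues, beside 2.33%, 3.41% and 2.04% of all genes, and DESeq2 called 0 members in each comparison after adjustment. In muscle the standard error of the COX1 difference was 0.15 on the log2 scale and the estimate -0.10, whereas in liver the standard error was 0.62. Changes of the order of 2-fold in liver were thus not resolvable in this fit, which has no covariate. The fit with the no_feature share as a covariate, given next, had a smaller standard error for COX1 in liver.

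The direction over the liver members turned with the no_feature share as a covariate. The fitted EO minus CTRL difference was positive for 3 of 10 members without it (median -0.16) and for 10 of 10 with it (median 0.40). With it, 0 members were called after adjustment and 3 had an unadjusted p under 0.05, beside 0% and 7.68% of 11570 genes (edgeR). These were COX1 (log2 0.39 ± 0.15 SE, unadjusted p = 0.0150, adjusted p = 0.622), ND4 (0.83 ± 0.34, unadjusted p = 0.0247, adjusted p = 0.627) and ND5 (0.35 ± 0.16, unadjusted p = 0.0444, adjusted p = 0.637). In muscle the direction depended on age as a covariate. The difference there was positive for 4 of 11 members without it (median -0.06) and for 9 of 11 with it (median 0.09). Both muscle fits called 0 of 11757 genes.

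The 2 members under an unadjusted p of 0.05 in muscle were tRNA genes. tRNA-Pro had a lowest, median and highest level of 1.85, 2.34 and 3.65 CPM in CTRL and 2.48, 3.47 and 6.59 CPM in EO (log2 0.58 ± 0.23 SE, unadjusted p = 0.0176, edgeR adjusted p = 1.00). tRNA-Ser(UCN) had 3.50, 5.03 and 10.8 CPM in CTRL and 3.89, 7.17 and 55.2 CPM in EO (log2 1.34 ± 0.47, unadjusted p = 0.0104, adjusted p = 1.00). The groups overlapped for both genes, and without lamb 12, which held the highest EO value of both, 0 members had an unadjusted p under 0.05.

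The comparison of liver with muscle in the same lambs separated few members. Of 12 tested, 3 were called (edgeR, adjusted p of 0.05), while 79.4% of 13020 genes were called, 38.8% higher in liver and 40.6% higher in muscle. Of these 3, ND4 and tRNA-Thr passed the count filter only in the tissue where they were fitted higher, which favours such a difference. The other, tRNA-Ser(UCN), was not called with the lamb as a block. COX1 was higher in muscle in 10 of 16 lambs, and so were CYTB and ATP6, while ND5 was higher in muscle in 11 and ND6 in 12.

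The fitted differences of the main mRNAs, liver minus muscle on the log2 scale, were 0.67 ± 0.33 (SE) for COX1 (adjusted p = 0.0589), 0.46 ± 0.29 for ATP6 (adjusted p = 0.142), 0.41 ± 0.32 for ND6 (adjusted p = 0.243), 0.37 ± 0.29 for CYTB (adjusted p = 0.234) and 0.20 ± 0.27 for ND5 (adjusted p = 0.487). The signs of the fit and of the majority of lambs thus differed: the fit compares group means, and COX1 was higher in liver than in muscle in each of the 5 lambs whose liver no_feature share lay above 40%, and in lamb 6. The fit also did not pair the 2 libraries of a lamb. Its differences were positive for 10 of 12 members (median 0.42). With the lamb as a block they were positive for 7 of 12 (median 0.11), and 2 members were called, beside 10254 of 13020 genes. COX1 passed the threshold with DESeq2 (0.77, adjusted p = 0.0244), with relative log expression scaling (0.77, adjusted p = 0.0386), and without lambs 1, 5, 7, 9 or 15 in turn (adjusted p from 0.0317 to 0.0474), so that no direction is given for it.

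With the no_feature share as a covariate with 1 slope for both tissues, an alternative chosen after seeing the data, 9 of the 12 members were called, all 9 lower in liver, beside 81.5% of 13020 genes called and 42.9% lower in liver. The share called was thus near that of all genes. COX1 then differed by -0.57 ± 0.14 (adjusted p = 0.000278), CYTB by -0.57 ± 0.15 (adjusted p = 0.00104), ND5 by -0.54 ± 0.18, ATP6 by -0.41 ± 0.18, and ND6 by -0.75 ± 0.16. COX2, COX3, tRNA-Pro and tRNA-Thr were the other 4, with differences of -0.71, -0.73, -2.87 and -4.66, but tRNA-Pro and tRNA-Thr passed the count filter in muscle only, which favours a higher muscle value. With the lamb as a block in addition, 9 of 12 were called beside 80.3% of genes. In the separate fits, slopes were positive for 10 of 10 members in liver (median 0.15) and for 1 of 11 in muscle (median -0.14). These differences between tissues thus rest on a common slope that the muscle fit did not show, and whether 1 slope suits both tissues was not tested.

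Liver libraries with a no_feature share inside the range of muscle gave values in the same order. These were 4 EO lambs (9, 10, 11 and 12), whose mitochondrial share was 2.34 ± 0.95% in liver and 4.41 ± 0.89% in muscle (SD, n = 4). Their COX1 level was 7508 ± 2312 CPM in liver and 12677 ± 2600 CPM in muscle, and their CYTB level 10666 ± 4894 and 21300 ± 4581 CPM. These 4 lambs are of 1 diet and were set apart after seeing the data, so no test is given.

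The clearest tissue difference was that of tRNA-Thr (ENSOARG00000000036), the tRNA gene next to CYTB. It lay at 0 to 2.05 CPM in liver (median 0.108) and at 1.01 to 9.06 CPM in muscle (median 5.16), and was higher in muscle in 16 of 16 lambs. The difference was -3.80 ± 0.40 (log2, liver minus muscle, adjusted p = 1.48e-10) and kept its sign and call under every alternative run, from -4.18 to -3.58 with each lamb left out. It passed the count filter in muscle only, which favours a higher muscle value. It rests on 16 counts in 58668834 in liver and 696 in 131026157 in muscle.

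Set against its neighbour CYTB, pooled tRNA-Thr counts were 16 against 1032657 CYTB counts in liver and 696 against 2522597 in muscle. tRNA-Pro, the next gene on the map and read in the opposite direction, had 185 and 421 counts beside the same CYTB counts, of which 153 of the 185 in liver came from lambs 2 and 8. The other 14 livers held 32 tRNA-Pro counts beside 805886 CYTB counts. tRNA-Pro was higher in muscle in 14 of 16 lambs, with medians of 0.441 CPM in liver and 3.06 CPM in muscle. The exceptions were the livers of lambs 2 and 8, and the fitted difference was -0.09 ± 0.56 (adjusted p = 0.893).

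ND4, a complex I subunit, was the mRNA called, higher in liver by 1.38 ± 0.50 (adjusted p = 0.0129), but it passed the count filter in liver only, which favours a higher liver value. It lay at 0 to 6.32 CPM in liver (median 1.12) and 0 to 2.12 CPM in muscle (median 0.754). It was higher in liver in 8 of 16 lambs, and its adjusted p was 0.0545 without lamb 2 and 0.0613 without lamb 16. tRNA-Ser(UCN) was higher in liver by 2.66 ± 0.71 (adjusted p = 0.000964) and in 9 of 16 lambs. With the lamb as a block this fell to 0.89 ± 0.67 (adjusted p = 0.228), and DESeq2 gave -0.14 (adjusted p = 0.747), so that its direction depends on the model.

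tRNA-Ser(UCN) was very unequal among livers. In liver it had 367 CPM in lamb 2 and 456 CPM in lamb 8, the 2 libraries with the highest no_feature shares, where it was counted 1103 and 1276 times. The other 14 liver libraries ranged from 0.434 to 118 CPM with a median of 6.57 CPM. In the muscle of the same lambs it had 10.8 and 5.49 CPM, within the range of the other muscle libraries.

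Some other members read in the opposite direction to most genes were also high in those livers, while 5 tRNA genes read that way (Gln, Ala, Asn, Cys and Tyr) had no count in any library. As stated above, a tRNA gene without counts cannot tell whether its transcript was present. tRNA-Pro had 25.9 and 26.8 CPM in lambs 2 and 8, against 0 to 2.74 CPM in the other 14 livers. tRNA-Glu, named after its values were seen, had 9 and 7 counts against 0 to 2. ND6, relative to ND5, had its highest liver values there, 33.7 and 28.1 counts per 1000 ND5 counts against 10.1 to 22.9, but its CPM there, 257 and 243, lay close to the 255 CPM of lamb 14.

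Among genes read in the usual direction, tRNA-Thr had 2 and 1 counts in the livers of lambs 2 and 8 and 0 to 4 in the others. COX1, at 38465 and 42473 CPM, lay within the range of the other livers (4011 to 46831), as did CYTB. As a share of mitochondrial counts, however, COX1 was highest in these livers, at 41.8 and 43.4% with the next at 38.6%, and its ratio to CYTB was 0.988 and 1.08 with the next at 0.919. The no_feature shares of these 2 libraries were 47.7 and 48.6%, and the part of that share in the result was not tested.

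**Figure D4:**
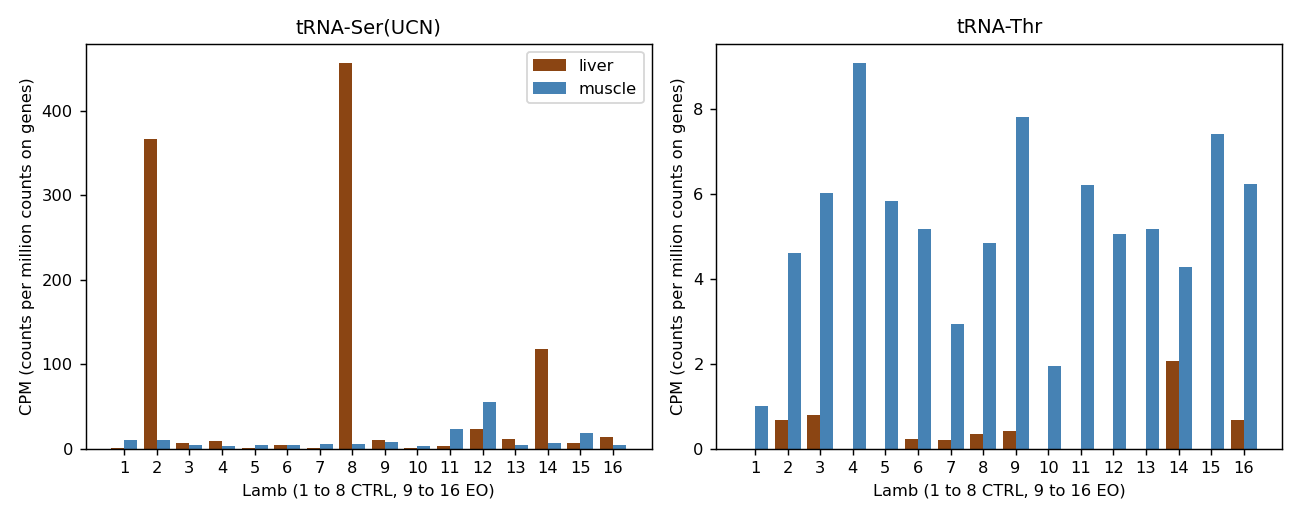
CPM (y axis, linear, separate scales) of tRNA-Ser(UCN) and tRNA-Thr in each lamb (x axis, 1 to 8 CTRL, 9 to 16 EO), with brown bars for liver and blue bars for muscle. tRNA-Ser(UCN) stands out in the livers of lambs 2 and 8 (367 and 456 CPM), whereas tRNA-Thr is higher in muscle in 16 of 16 lambs.

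The composition of mitochondrial counts was much alike in the tissues. COX1 took 34.4 ± 4.88% of mitochondrial counts in liver and 32.8 ± 6.02% in muscle, CYTB 44.9 ± 2.62 and 46.6 ± 2.69%, ND5 11.0 ± 2.03 and 11.5 ± 2.62%, and ATP6 9.34 ± 1.90 and 8.81 ± 1.98% (SD, n = 16 each). CYTB had the steadiest share, with a coefficient of variation of 5.84% in liver and 5.76% in muscle. The mean differences between tissues were smaller than 1 SD for each of the 4 genes.

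The ATP6 share of mitochondrial counts followed the lamb. The ATP6 percentage of mitochondrial counts had a lowest, median and highest value of 6.90, 8.83 and 12.6% in liver and of 5.16, 8.25 and 11.6% in muscle, and lambs kept nearly the same place in both tissues. CTRL lamb 5 had 12.6% in liver and 11.5% in muscle, EO lamb 11 had 11.8 and 11.6%, and CTRL lamb 8 had 6.98 and 5.16%. High and low lambs occurred in both diets.

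Across the 16 lambs the liver and muscle percentages of ATP6 had a Pearson's r of 0.950 and a Spearman's rho of 0.947 (two-sided permutation tests, p = 1e-05 for each, the smallest that 100000 resamples give; adjusted p = 0.00012 over the 12 relations calculated). Without lambs 5 and 11, the farthest from the median in liver, r was 0.934. Within the CTRL lambs r was 0.939 and within the EO lambs 0.971 (n = 8 each). The relation therefore held within each diet and did not rest on the extreme lambs.

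For the other members the relation was weaker or not detectable over all lambs. COX1 had r = 0.595 and rho = 0.512 (permutation adjusted p = 0.0362 and 0.133), and r = 0.414 without lambs 5 and 8. For ND5 r was 0.319, for ND6 0.438, for CYTB 0.351 and for tRNA-Ser(UCN) 0.138, with adjusted p from 0.214 to 0.544 by permutation. Without the 2 lambs farthest from the median in liver, r was 0.564 for ND5, 0.360 for ND6, -0.15 for CYTB and 0.732 for tRNA-Ser(UCN) (without lambs 2 and 8), so that the last of these depended on the 2 livers described above. The percentages within a library sum to 100, so those of different members are not independent. That the correlation of ATP6 exceeds those of the others was not tested.

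The ATP6 percentage had no detectable relation with the no_feature share (r = -0.37 in liver and 0.21 in muscle) or with counts on genes (r = -0.16 and -0.39), with adjusted p of 0.26 or more for r and 0.193 or more for rho by permutation in these 4 relations. With age, r was 0.621 in liver and 0.635 in muscle (adjusted p = 0.0362 for both by permutation) and rho 0.580 and 0.605 (adjusted p = 0.0805 for both). Without lambs 8 and 11, r with age was lower, 0.487 and 0.413. Lamb 8 was the youngest at 154 days, but lamb 11 shared its age of 190 days with lambs 3 and 5. It was left out among these by order only, so how far the relation leaned on lamb 11 was not tested. Lamb, age and library preparation of a lamb's samples cannot be told apart here, since nothing in the labels says whether both tissues of a lamb were prepared together.

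**Figure D5:**
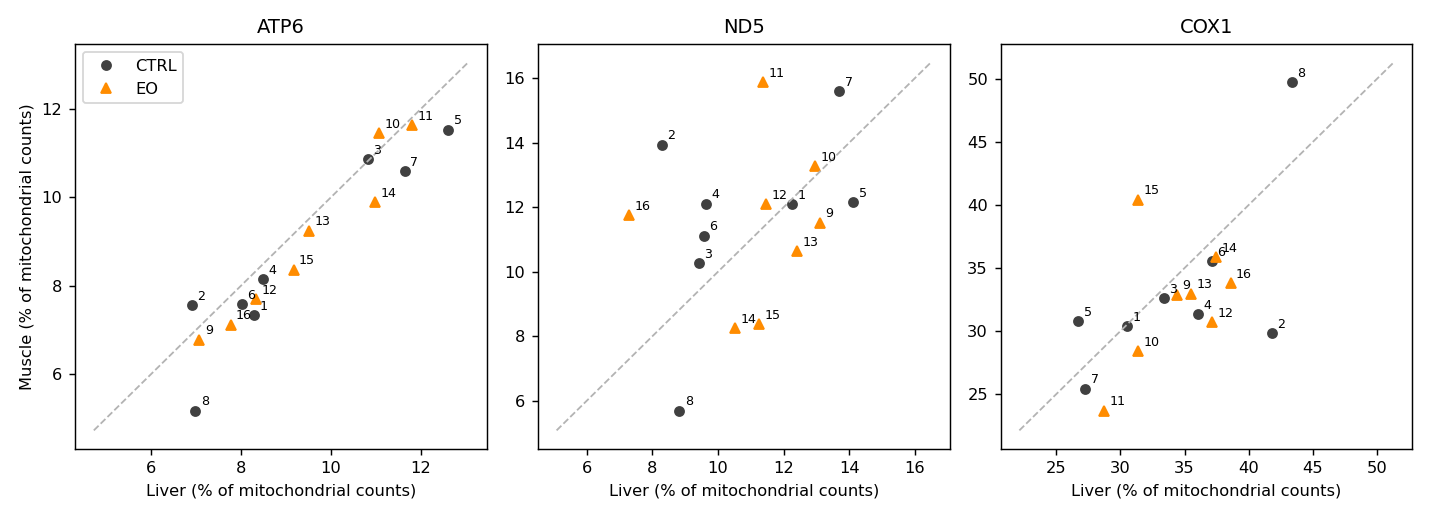
Percentage of mitochondrial counts on ATP6, ND5 and COX1 in muscle (y axis) against liver (x axis) for the 16 lambs, numbered (circles CTRL, triangles EO), with the dashed line marking equal values. ATP6 lies close to the line over its whole range (r = 0.950), whereas ND5 (r = 0.319) and COX1 (r = 0.595) scatter.

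A fit over all genes with lamb terms, added after seeing the data, asked whether any member differed among lambs in both tissues together after allowance for tissue and no_feature share. It called 1 of 12 members, tRNA-Ser(UCN) (F = 7.09, edgeR adjusted p = 0.00219), beside 2.26% of 13020 genes. ATP6 had an unadjusted p of 0.00672 and an adjusted p of 0.152 in this fit, which uses its CPM and not its share of mitochondrial counts. The call of tRNA-Ser(UCN) was lost without lamb 12 (adjusted p = 0.0818) and without the no_feature terms, where 0 members were called. EO lamb 12 had high values of that gene relative to COX1 in both tissues, 3.57 counts per 1000 COX1 counts in liver and 4.09 in muscle, beside medians of 0.640 and 0.430.

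One muscle library stood apart from the other CTRL muscles in composition. In the muscle of CTRL lamb 8, COX1 took 49.7% of mitochondrial counts, CYTB 39.2%, ND5 5.69% and ATP6 5.16%, while the other 7 CTRL lambs had at most 35.5% on COX1. The EO muscles had at most 40.4% on COX1. In liver, too, lamb 8 had the highest COX1 share, 43.4%. The mitochondrial share of gene counts in the muscle of lamb 8, 2.97%, was the lowest of the muscle libraries, and CYTB stood at 11645 CPM where the next CTRL lamb had 18900 CPM. COX1 itself, at 14779 CPM, was within the range of the group (12281 to 16601 CPM).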

How the data were processed

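Total RNA of liver and muscle was made into poly-A selected paired-end libraries. Per the labels and the study's methods, the authors trimmed reads with Trimmomatic 0.33, aligned them with STAR 2.4.0.1 (genome: Ovis aries v.3.1) and used HTSeq 0.6.1 for counting; the strand setting is not given in the sources used here. The deposited values are raw counts per gene, 1 table per sample, ending in HTSeq's counters, which were kept out of library sizes and tests. Groups came from the sample labels. Members and lists were chosen with earlier results of these data known.

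Counts were analysed with edgeR 4.0.16 in R 4.3.3 (TMM scaling, quasi-likelihood F test, Benjamini-Hochberg adjustment over all genes kept). A gene was kept with at least 1 CPM in 9 of the 16 libraries of a tissue, and called at an adjusted p of 0.05. For liver against muscle, genes kept in either tissue entered. DESeq2 1.42.0, other scalings, no filter (a total of at least 10 counts), covariates, a lamb block and each lamb left out were the alternatives. Correlations over lambs used 100000 permutations (SciPy 1.17.1), and shares of counts were described with no test. Scripts were tested on simulated counts.

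Protein-coding and rRNA members could be named throughout, and a tRNA gene where it passed the filter or a test. Equal sample numbering, diet and age tie a liver and a muscle library to 1 lamb. Over 10307 genes, deviations from group means correlated on average at 0.109 within a lamb (from -0.234 to 0.431) and at -0.0163 between different lambs of a diet. Deviations within a group sum to 0, so the second mean nearly follows from the first and is no independent check of the pairing. Across 112 pairs of libraries of a group, 0 were identical. The RefSeq gene table used for names holds 0 sheep Ensembl identifiers, so lists of nuclear respiratory genes and tissue markers were not analysed here and the tissue labels were not checked by markers. Each lamb is a separate animal with 1 library per tissue.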

Additional observations from a re-analysis of the deposited data

Results flagged for a closer look

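Within each group of 8 lambs, the highest and lowest value of each member with enough counts was compared with its neighbour. Of 56 such groups, 9 held a value whose gap exceeded Dixon's 95% critical ratio, where 1 in 20 by chance would give 2.8. The values of a library are not independent of each other.

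In EO liver, lamb 14, the shallowest library at 1460920 counts on genes and with a no_feature share of 44.4%, had 118 CPM of tRNA-Ser(UCN) (next 24.01) and 2.05 CPM of tRNA-Thr (next 0.679), the latter from 3 counts. Lamb 16 had the lowest ND5 percentage of mitochondrial counts, 7.28% (next 10.5%).

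In CTRL muscle, lamb 8 had 11645 CPM of CYTB (next 18900), 49.7% of mitochondrial counts on COX1 (next 35.5%) and 39.2% on CYTB (next 45.3%).

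In EO muscle, lamb 11 had 6228 CPM of ATP6 (next 3943) and 8501 CPM of ND5 (next 5374), and lamb 12 had 55.2 CPM of tRNA-Ser(UCN) (next 23.6).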

How the results depend on the processing

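The slope on the no_feature share in liver was called for 10 of 10 members under each alternative, for 13 of 13 without the CPM filter, and in 16 of 16 fits with a lamb left out; 0 members were called for diet under any alternative run. Liver against muscle was the comparison that moved. It gave 3 called members, of which ND4 and tRNA-Thr passed the count filter in 1 tissue only. The number called was 2 to 5 with a lamb left out (5 without lamb 5), 2 with the replicate block, and 9 with the no_feature share as a covariate, with or without the block. With the covariate, and with covariate and block, COX1 turned to -0.57 and -0.54, CYTB to -0.57 and -0.63, ND4 to -0.10 and -0.42 and tRNA-Ser(UCN) to -0.41 and -0.49. CYTB was -0.028 with the replicate block and -0.21 with uniquely aligned fragments as library size, which moved the median of all genes from -0.04 to -0.48. tRNA-Ser(UCN) was -0.14 in this comparison with DESeq2, and its diet difference in liver, -2.36, became 0.97 with DESeq2 and 0.71 with the covariate. The cause of these changes was not tested. The lamb fit called 0 to 1 members with a lamb left out and 0 without no_feature terms. The mitochondrial share of muscle, 4.25% of gene counts, was 3.01% of uniquely aligned fragments and 1.96% of everything recorded. The last mean (median 1.87%) includes CTRL lamb 5 at 3.81%, whose counter of non-unique alignments stands at 0. The replicate block changed no other call. Members with under 10 CPM rest on few counts.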
